A study of Rattus norvegicus with 15 samples.

Results

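MERGE.17697 is an assembled locus, that is, a group of overlapping transcript models built from the reads, and each number after its last dot is 1 isoform. All isoforms whose ID starts with MERGE.17697. were taken as members, which gave 5 of the 43936 transcripts listed for any library: MERGE.17697.3, MERGE.17697.5, MERGE.17697.8, MERGE.17697.11 and MERGE.17697.12. The locus had been picked because MERGE.17697.8 was absent in 1 rat strain and present in the other, so every difference between the strains below is a description and carries no test. The libraries came from the abdominal aorta of rats and fell into 3 groups of 5. WKY is the normotensive Wistar Kyoto strain and SHR the spontaneously hypertensive strain, and both were given double distilled water for 10 weeks. SHR+Nef is the hypertensive strain dosed with the lotus alkaloid neferine, at 10 mg/kg per day over the same 10 weeks. WKY and SHR thus differ by strain, and SHR and SHR+Nef by treatment within 1 strain.

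A gene can yield several isoforms through different start sites, splice choices and ends, and isoforms of 1 gene can encode different proteins or differ only in their untranslated parts. The total output of a gene and the choice among its isoforms can change separately, so a new isoform may add to the others or stand in their place. In the wall of the aorta, smooth muscle cells form most of the medial layer, beside endothelium and fibroblasts. The files do not pair the locus with a gene name, a position or a sequence, so the product of MERGE.17697 is not known here and its isoforms are called by the number that ends their ID, so that isoform 8 is MERGE.17697.8. None of the 43936 IDs could be matched to a gene symbol (0 matched), so the labelled tissue could not be set against its marker genes. In whole tissue, fewer cells that express the locus and less RNA per cell cannot be told apart.

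Each deposited value is the abundance of 1 transcript in 1 library, and the sources used here do not say whether it was scaled as FPKM or TPM. Sums and shares within the locus take it that the values of its isoforms are comparable with each other, as they are when abundance is given per length. Isoforms of a locus can share reads, and how the authors divided such reads is not stated, so the split between isoforms is less certain than their sum. Library sums of all listed values ran from 496460 to 746274, and they are not read depths, so the depth is unknown and no counting interval is given. SHR replicate 4 stood apart from the other 14 libraries, with 8259 of the 39097 transcripts listed for all 15 libraries at 0, against 2560 to 3739. It was also the lowest SHR library in all 5 isoforms alike. Its removal moved several results of the SHR group, and their values without it are given beside them.

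The 5 isoforms did not appear in the same tables. Isoforms 8, 11 and 12 were listed for all 15 libraries, while isoform 3 and isoform 5 were listed for WKY and SHR and not for SHR+Nef. Of the 36799 transcripts with an SHR mean of at least 0.5, 0 were missing from the SHR+Nef tables. Another 2298 transcripts had an SHR mean under 0.5 and were still in those tables, each with an SHR+Nef average of 0.5 or more. Isoform 3 and isoform 5 had SHR means of 0.217 and 0.122. If the same cut-off applied to SHR+Nef means, those of isoforms 3 and 5 were under 0.5 each. No values per library were at hand to show it. No isoform of the locus was listed for SHR+Nef alone (0 isoforms).

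In WKY the locus was made up of isoforms 3, 5, 11 and 12, and in SHR of isoforms 8, 11 and 12, with isoforms 3 and 5 together at 3.24% of the sum or less. The 5 WKY libraries all listed isoform 8 at 0. It stood at 8.80, 11.02, 13.5, 5.72 and 14.8 in SHR replicates 1 to 5, and at 16.4, 15.5, 13.1, 13.7 and 15.6 in SHR+Nef replicates 1, 2, 4, 5 and 6. Each of the 10 libraries of the hypertensive strain was above each WKY library, and the lowest of the 10 was SHR replicate 4. The means were 10.8 ± 3.64 in SHR (SD, n = 5), 12.02 ± 2.65 without SHR replicate 4 (SD, n = 4) and 14.9 ± 1.39 in SHR+Nef (SD, n = 5). No fold is given, since WKY is listed at 0.

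**Figure D1:**
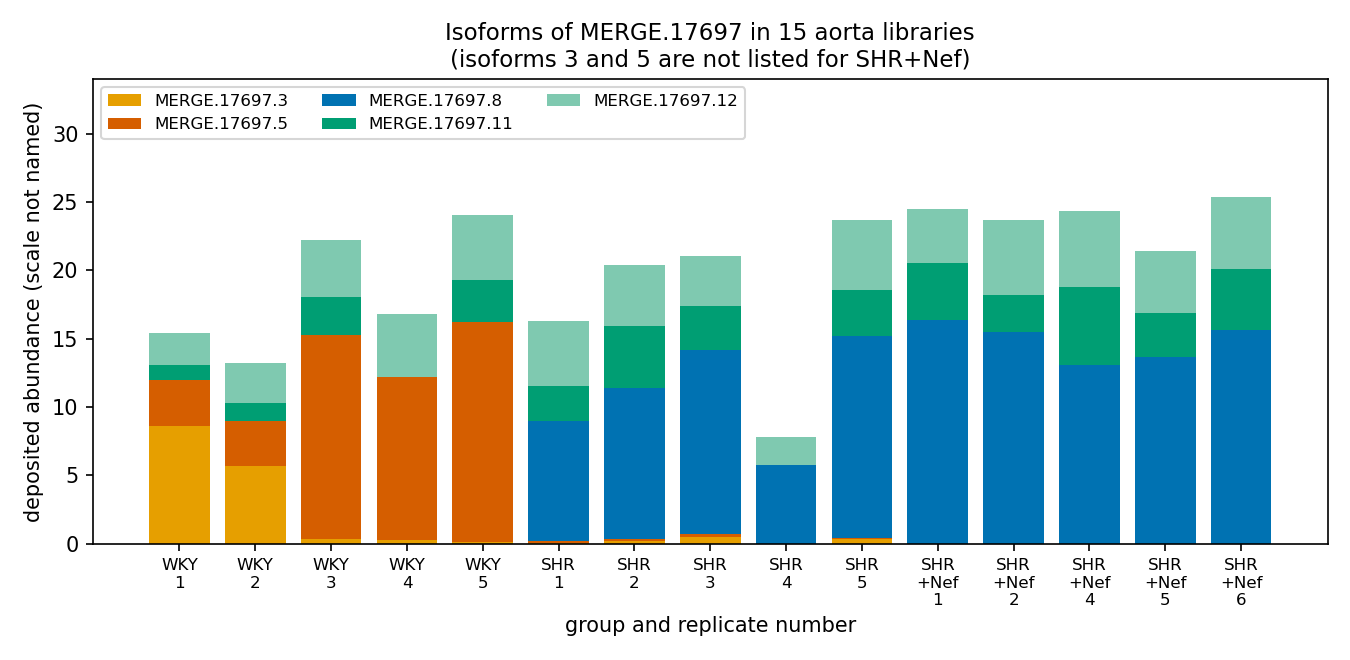
Deposited abundance (y axis) of the isoforms of MERGE.17697, stacked, in each of the 15 libraries (x axis, group and replicate number). WKY bars hold isoforms 3, 5, 11 and 12, and the SHR and SHR+Nef bars hold mainly isoforms 8, 11 and 12. Isoforms 3 and 5 add at most 0.681 to an SHR bar and are not listed for SHR+Nef, and SHR replicate 4, with isoform 11 at 0, is the lowest bar at 7.78.

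Isoform 5 had the opposite pattern between the strains. It stood at 3.39, 3.35, 14.9, 11.9 and 16.1 in WKY replicates 1 to 5, and at 0.191, 0.162, 0.167, 0.00894 and 0.082 in SHR replicates 1 to 5. The 5 SHR values all lay below the 5 WKY values. The means were 9.95 ± 6.20 (SD) over the 5 WKY libraries and 0.122 ± 0.0754 (SD) over the 5 SHR libraries, so the SHR mean was 0.0123 times the WKY mean.

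Isoform 3 was high in 2 WKY libraries alone. It stood at 8.59 and 5.66 in WKY replicates 1 and 2, at 0.358, 0.255 and 0.122 in WKY replicates 3, 4 and 5, and at 0.0218, 0.205, 0.514, 0.00216 and 0.344 in SHR replicates 1 to 5. The strains overlapped, since WKY replicates 3 to 5 lay within the range of SHR. Its WKY mean of 3.00 ± 3.91 (SD, n = 5) thus rests on replicates 1 and 2.

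Within WKY, isoform 3 and isoform 5 varied against each other. The share of isoform 3 in the sum of these 2 isoforms was 71.7% in WKY replicate 1 and 62.8% in replicate 2, against 2.34%, 2.09% and 0.75% in replicates 3, 4 and 5. Their sum varied less than either, at 11.97, 9.003, 15.3, 12.2 and 16.3 in WKY replicates 1 to 5. The coefficient of variation over the 5 WKY libraries was 22.4% for the sum, 62.3% for isoform 5 and 130.4% for isoform 3. The 2 WKY libraries with much isoform 3 also had the lowest sums of all 5 isoforms. The labels give nothing that sets WKY replicates 1 and 2 apart from the other 3. Their library sums of all listed values were higher, at 634078 and 625123 against 507528 to 554310. Whether this bears on the split was not tested.

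Isoform 11 and isoform 12 were present in both strains. Isoform 11 stood at 1.09, 1.32, 2.74, 0.0352 and 3.02 in WKY replicates 1 to 5. In SHR it stood at 2.55, 4.51, 3.23, 0 and 3.39 in replicates 1 to 5, the 0 being that of SHR replicate 4. In SHR+Nef it stood at 4.16, 2.69, 5.66, 3.22 and 4.48 in replicates 1, 2, 4, 5 and 6. The groups overlapped, and WKY replicate 4 and SHR replicate 4 were the lowest of their groups.

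Isoform 12 was the steadier of the pair. It stood at 2.33, 2.90, 4.16, 4.59 and 4.80 in WKY replicates 1 to 5 and at 4.77, 4.53, 3.60, 2.05 and 5.08 in SHR replicates 1 to 5. In SHR+Nef it stood at 3.999, 5.48, 5.56, 4.56 and 5.29 in replicates 1, 2, 4, 5 and 6. All 3 groups overlapped, with means of 3.75 ± 1.09 (WKY), 4.01 ± 1.23 (SHR) and 4.98 ± 0.677 (SHR+Nef), each with its SD over 5 libraries. The difference of SHR from WKY, 0.251 with a standard error of 0.733, was smaller than the spread between libraries, and without SHR replicate 4 it was 0.741 with a standard error of 0.581.

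**Figure D2:**
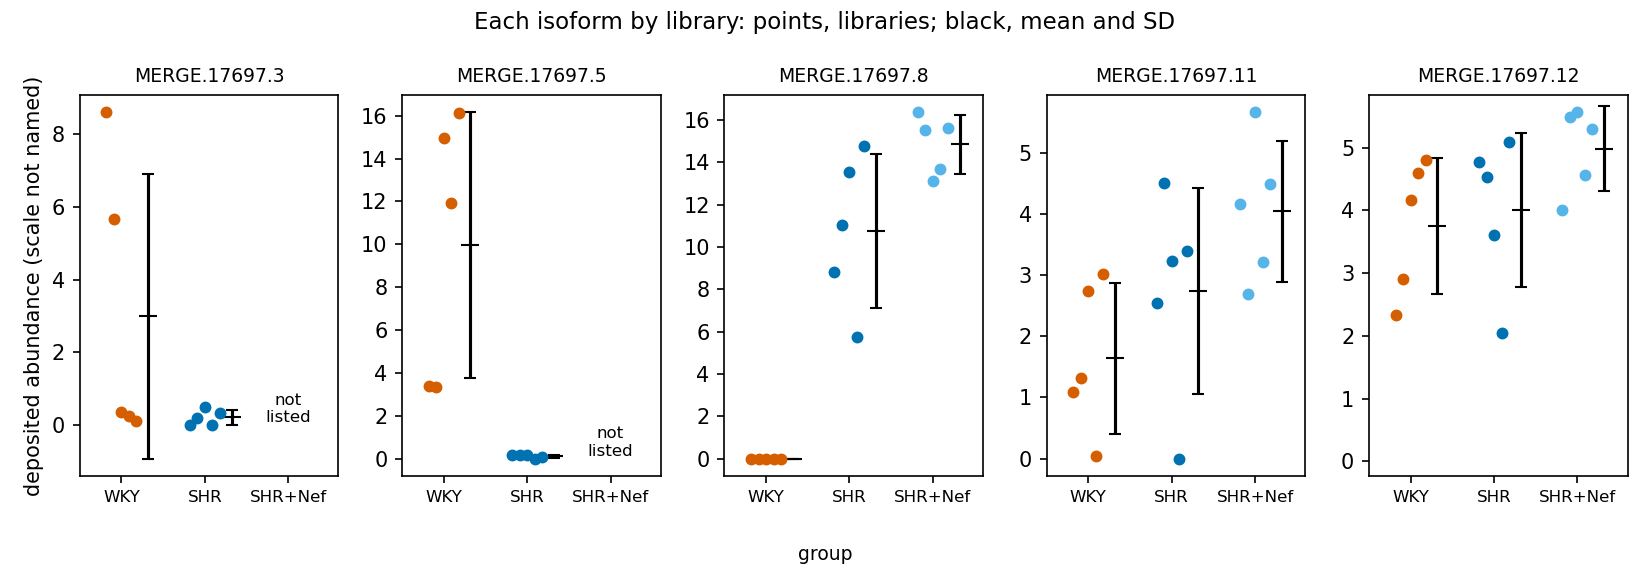
Deposited abundance (y axis) of each isoform by group (x axis), with 1 point per library and the mean and SD in black beside them; the lower SD bar of isoform 3 in WKY passes below 0. Isoform 8 is at 0 in WKY and between 5.72 and 16.4 in the other groups, isoform 5 is between 3.35 and 16.1 in WKY and under 0.2 in SHR, and isoforms 11 and 12 overlap between all groups.

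The order of the isoforms by mean level differed between the groups. In WKY it was isoform 5 (9.95), isoform 12 (3.75), isoform 3 (3.00), isoform 11 (1.64) and isoform 8 (listed at 0). Isoform 12 was above isoform 11 in each of the 5 WKY libraries, and isoform 3 lay on either side of both. In SHR the order was isoform 8 (10.8), isoform 12 (4.01), isoform 11 (2.74), isoform 3 (0.217) and isoform 5 (0.122). There, too, isoform 12 was above isoform 11 in each of the 5 libraries, while isoforms 3 and 5 overlapped and neither was higher throughout. In SHR+Nef it was isoform 8 (14.9), isoform 12 (4.98) and isoform 11 (4.04), where isoform 12 was above isoform 11 in 3 of 5 libraries.

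Summed over all 5 isoforms, the locus overlapped between WKY and SHR, and isoform 8 took the place of isoforms 3 and 5 within that sum. The sum was 15.4, 13.2, 22.2, 16.8 and 24.1 in WKY replicates 1 to 5 and 16.3, 20.4, 21.0, 7.78 and 23.7 in SHR replicates 1 to 5. The groups overlapped widely: SHR was higher in 12 of the 25 pairs of 1 SHR and 1 WKY library. The means were 18.3 ± 4.61 (SD) over the 5 WKY libraries and 17.8 ± 6.21 (SD) over the 5 SHR libraries, a difference of -0.498 with a standard error of 3.46. Without SHR replicate 4 the SHR mean was 20.4 ± 3.03 (SD, n = 4) and the difference 2.02 with a standard error of 2.56, so its sign turns with that library. With errors of this size, a change of the total by several units in either direction cannot be told from none.

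The 2 larger parts of that difference had opposite signs. The sum of isoforms 3 and 5 was 12.9 ± 2.90 (SD) over the 5 WKY libraries and 0.339 ± 0.249 (SD) over the 5 SHR libraries, a difference of -12.6 with a standard error of 1.30. Isoform 8 differed by 10.8 with a standard error of 1.63, and by 12.02 with a standard error of 1.33 without SHR replicate 4. The sum of isoforms 11 and 12 was 5.40 ± 1.87 (SD) over the 5 WKY libraries and 6.74 ± 2.77 (SD) over the 5 SHR libraries, a difference of 1.35 with a standard error of 1.50. Without SHR replicate 4 this last difference was 2.52 with a standard error of 0.98.

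**Figure D3:**
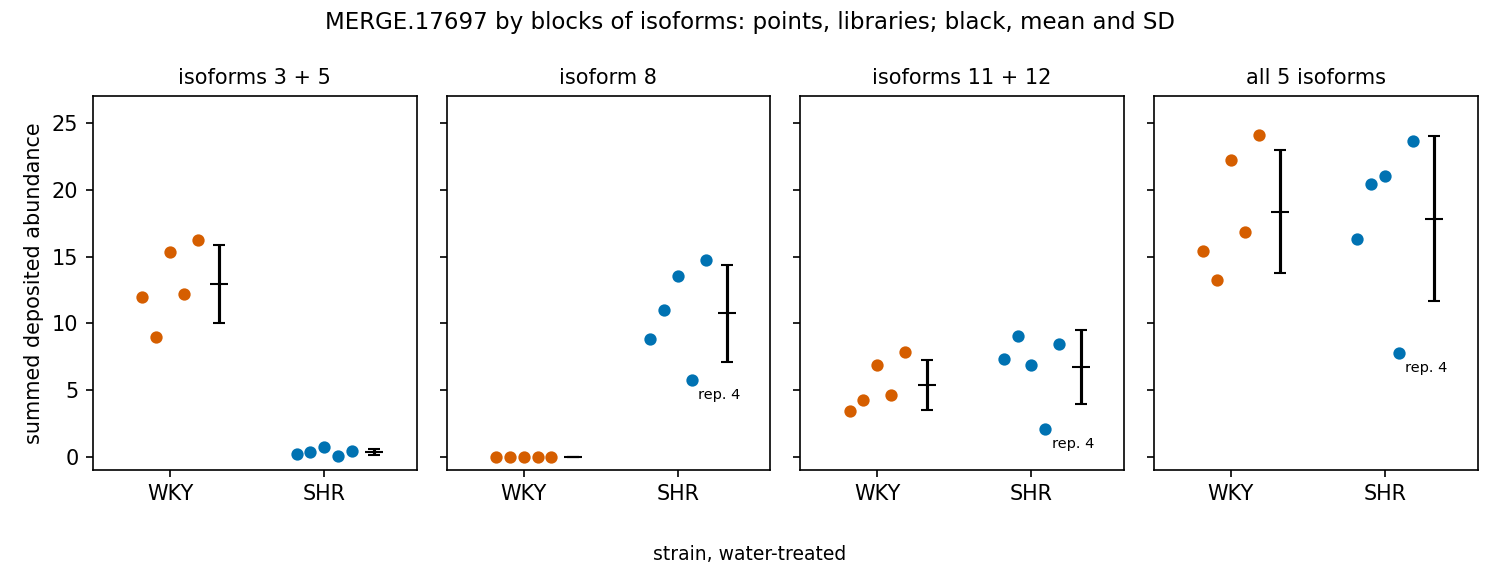
Summed deposited abundance (y axis) of isoforms 3 and 5, of isoform 8, of isoforms 11 and 12 and of all 5 isoforms in WKY and SHR (x axis), with 1 point per library and the mean and SD in black. The first 2 panels do not overlap and point in opposite directions, while the sum of all 5 isoforms overlaps, at 18.3 in WKY and 17.8 in SHR, with SHR replicate 4 the lowest.

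Shares of the 5-isoform sum showed the same exchange. Isoforms 3 and 5 together held 77.8%, 68.1%, 68.9%, 72.5% and 67.5% of the sum in WKY replicates 1 to 5, and 1.30%, 1.80%, 3.24%, 0.143% and 1.80% in SHR replicates 1 to 5. Isoform 8 held 53.9%, 54.0%, 64.3%, 73.6% and 62.4% of the sum in SHR replicates 1 to 5 and 0% in WKY. Across libraries the share of isoforms 3 and 5 in WKY thus ranged from 67.5% to 77.8%, although the split between them ranged from nearly all isoform 5 to mostly isoform 3. The mean share was 71.0 ± 4.29% for isoforms 3 and 5 in WKY and 61.6 ± 8.19% for isoform 8 in SHR (n = 5 each, SD), or 58.6 ± 5.48% without SHR replicate 4 (SD, n = 4). Isoforms 11 and 12 made up the rest, 29.0 ± 4.29% (SD) over the 5 WKY libraries and 36.7 ± 7.90% (SD) over the 5 SHR libraries. Their share overlapped between the strains. Without SHR replicate 4 it was 39.3 ± 6.15% in SHR (SD, n = 4) and did not overlap, but only just. SHR replicate 3 was then at 32.48% and WKY replicate 5 at 32.47%, so nothing is read from that gap.

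The same comparison over the 3 isoforms listed for all 15 libraries gave another picture. Their sum was 5.40 ± 1.87 (SD) over the 5 WKY libraries and 17.5 ± 6.003 (SD) over the 5 SHR libraries, so the SHR mean was 3.24 times the WKY mean. Here isoform 8 adds to the others: the rest of the sum, isoforms 11 and 12, was no lower in SHR than in WKY. SHR lay above WKY in 24 of 25 pairs of libraries, the exception being SHR replicate 4 at 7.77 against WKY replicate 5 at 7.82. The groups did not overlap without SHR replicate 4, and the SHR mean was then 3.70 times the WKY mean. The 2 sums differ only in isoforms 3 and 5, which hold most of the locus in WKY and which the SHR+Nef tables leave out. Both had SHR means under 0.5, as had all transcripts listed for WKY and SHR that were missing from the SHR+Nef tables. The 3-isoform sum thus leaves out isoforms that are low in SHR, and it does not show whether isoform 8 adds to or replaces the whole locus. With all 5 members counted, isoform 8 stood in the place of isoforms 3 and 5 together in SHR. In SHR+Nef the 3 listed isoforms alone averaged 23.9, from 21.4 to 25.4. All 5 isoforms averaged 18.3 in WKY, from 13.2 to 24.1, so these ranges overlapped with a higher mean in SHR+Nef. That difference was not tested.

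Of the 5 members, 4 were at 1 or above in 5 libraries or more, and isoform 3 was not. Among these 4, isoform 8 lay above WKY in SHR without overlap and isoform 5 below. Over all transcripts with such values, 1.43% lay above and 1.50% below without overlap. An isoform above and another below within 1 locus were found in 0.582% of the 5495 assembled loci with 2 or more isoforms. Since the locus was chosen by this contrast, nothing is read from these counts. On the log2(value + 1) scale, which understates changes of low values, the SHR minus WKY difference was 3.49 with a standard error of 0.20 for isoform 8. It was 0.45 with a standard error of 0.45 for isoform 11, and 0.07 with a standard error of 0.22 for isoform 12. The median over the 29095 transcripts fitted was -0.03.

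In SHR+Nef, too, isoform 8 lay above WKY. It differed by 14.9 with a standard error of 0.622 and did not overlap with WKY, as did 2.68% of all transcripts in that direction. For isoform 11 the difference was 2.40 with a standard error of 0.756, and for isoform 12 it was 1.23 with a standard error of 0.572, both with overlap. This comparison shares the WKY libraries with that of SHR against WKY, and the locus was chosen for its level in WKY, so no test is given.

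The difference between SHR+Nef and SHR was not used to choose the locus and was tested. The SHR libraries in this test, however, are also among those in which the choice found isoform 8 present. All 3 isoforms had higher means in SHR+Nef than in SHR, and none passed the test over all transcripts. For isoform 8 the ratio of means was 1.38, SHR+Nef was higher in 22 of 25 pairs of libraries, and the groups overlapped through SHR replicates 3 and 5. Its log2(value + 1) difference was 0.49 with a standard error of 0.20 and a 95% interval of 0.06 to 0.92 before adjustment (limma, adjusted p = 0.78). The spread behind this interval was estimated over all 3 groups. The 5 WKY libraries, all at 0 as the choice of the locus required, add no spread to it and make the interval narrower. That the interval lies above 0 is therefore not read as a result. With only SHR and SHR+Nef fitted, the difference was again 0.49 (limma, adjusted p = 0.84). In the fit of all 3 groups without SHR replicate 4, the difference was 0.30 (limma, adjusted p = 0.98). Over all 15 libraries, 2 of the 29095 transcripts were called (0.00687%), and none of the 3 members was. Before adjustment, 1790 of the 29095 transcripts had a p under 0.05 (limma).

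The differences of isoforms 11 and 12 had the same sign and did not pass the test either. The log2 difference of isoform 11 was 0.60 with a 95% interval of -0.36 to 1.57 (limma, adjusted p = 0.78), and without SHR replicate 4, in which it is at 0, it was 0.18. For isoform 12 it was 0.29 with a 95% interval of -0.18 to 0.76 (limma, adjusted p = 0.78), and 0.12 without SHR replicate 4. These intervals hold both no change and rises of some size, so they do not show that neferine left the isoforms as they were. The median difference over all 29095 transcripts was 0.06.

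The sum of isoforms 8, 11 and 12 was 16.1, 20.1, 20.3, 7.77 and 23.2 in SHR replicates 1 to 5. In SHR+Nef it was 24.5, 23.7, 24.3, 21.4 and 25.4 in replicates 1, 2, 4, 5 and 6. The groups overlapped through SHR replicate 5 and SHR+Nef replicate 5, and SHR+Nef was higher in 24 of 25 pairs. The means were 17.5 ± 6.003 and 23.9 ± 1.49 (n = 5 each, SD). Their log2 difference was 0.51 with a 95% interval of -0.04 to 1.05 (limma, adjusted p = 0.76 over 10401 locus sums, of which 0.0288% were called). Without SHR replicate 4 it was 0.26 (limma, adjusted p = 0.96), so much of the difference rests on that library. If the listing cut-off of 0.5 applied to SHR+Nef means, the mean sum over 5 isoforms there would be under 24.9. Isoforms 3 and 5 would then hold under 4.02% of it and isoform 8 over 59.7%.

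**Figure D4:**
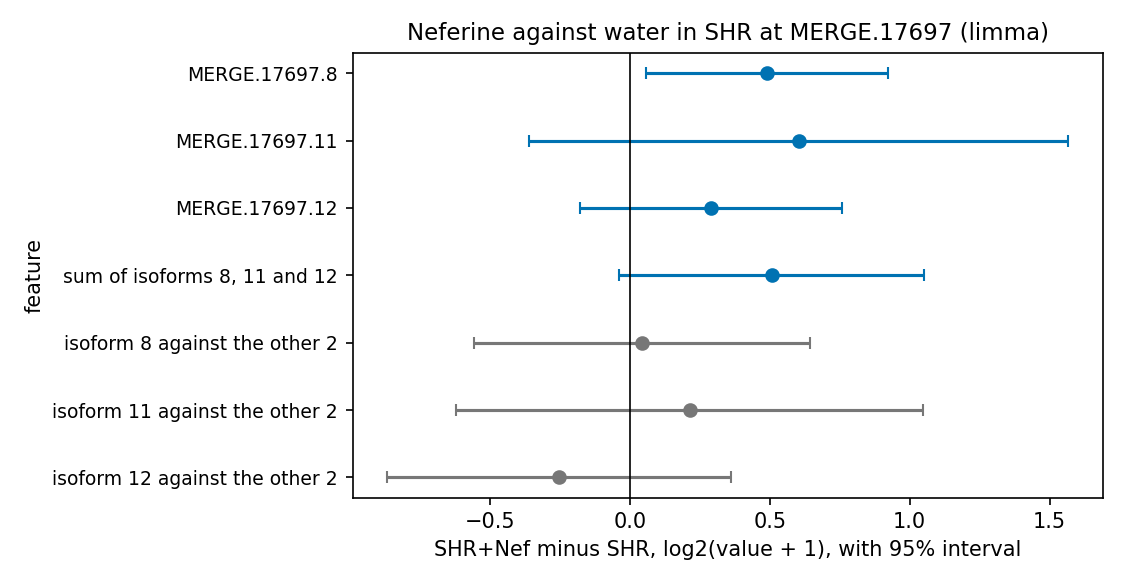
Difference of SHR+Nef from SHR on the log2(value + 1) scale (x axis) for 3 isoforms, their sum, and each isoform against the mean of the other 2 (y axis), as points with 95% intervals from limma. The interval of isoform 8 lies above 0, from 0.06 to 0.92, before adjustment over all transcripts, and the intervals of the others include 0. The WKY libraries, all at 0 in isoform 8, share in its estimate of spread and make its interval narrower. Before adjustment, 1790 of 29095 transcripts had a p under 0.05 (limma).

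No shift in the balance of the isoforms between SHR and SHR+Nef passed a test. Isoform 8 held 54.6%, 54.9%, 66.4%, 73.7% and 63.5% of the 3-isoform sum in SHR replicates 1 to 5. In SHR+Nef it held 66.7%, 65.5%, 53.9%, 63.7% and 61.5% in replicates 1, 2, 4, 5 and 6. The highest share was that of SHR replicate 4, in which isoform 11 is at 0, and the groups overlapped. The means were 62.6 ± 8.07% and 62.3 ± 5.08% (n = 5 each, SD), a difference of -0.376 percentage points with a standard error of 4.27 (exact permutation test over 252 splits, two-sided, p = 0.889, the smallest possible p being 0.00794). Without SHR replicate 4 the difference was 2.38 points (exact permutation test, two-sided, p = 0.556).

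Relative to the average log2 value of its 2 partners, isoform 8 differed between SHR+Nef and SHR by 0.04 with a 95% interval of -0.56 to 0.64 (limma, adjusted p = 0.99). The same quantity was 0.21 for isoform 11 and -0.26 for isoform 12 (limma, adjusted p = 0.96 and 0.93). Leaving out SHR replicate 4 gave 0.15 for isoform 8, -0.03 for isoform 11, whose sign thus turned, and -0.12 for isoform 12 (limma, adjusted p = 0.991, 0.996 and 0.991). Over all 11430 isoforms of loci with 2 or more, 0 were called (0%), and 688 had an unadjusted p under 0.05 (limma). The width of these intervals sets how small a shift of the balance could be seen with these libraries.

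Within the 10 libraries of the hypertensive strain, no relation between isoform 8 and the sum of isoforms 11 and 12 held without SHR replicate 4. The Pearson correlation was 0.684 (permutation test, 100000 resamples, p = 0.0384) and Spearman's rho was 0.37 (permutation test, p = 0.294). This pair was the 1 relation tested, with both coefficients, while the likeness correlations given further below carry no test. Without the 2 libraries farthest from the median of isoform 8, SHR replicates 1 and 4, Pearson's r was -0.155 over 8 libraries (exact permutation test, p = 0.685). Pearson's r was 0.157 without SHR replicate 4 alone (permutation test, p = 0.681) and 0.718 without SHR replicate 1 alone (permutation test, p = 0.0733), so the positive relation rests on SHR replicate 4. With the values centred on the mean of each treatment group, r was 0.548 (permutation test, p = 0.102), and each group of 5 libraries was too small for an r of its own.

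**Figure D5:**
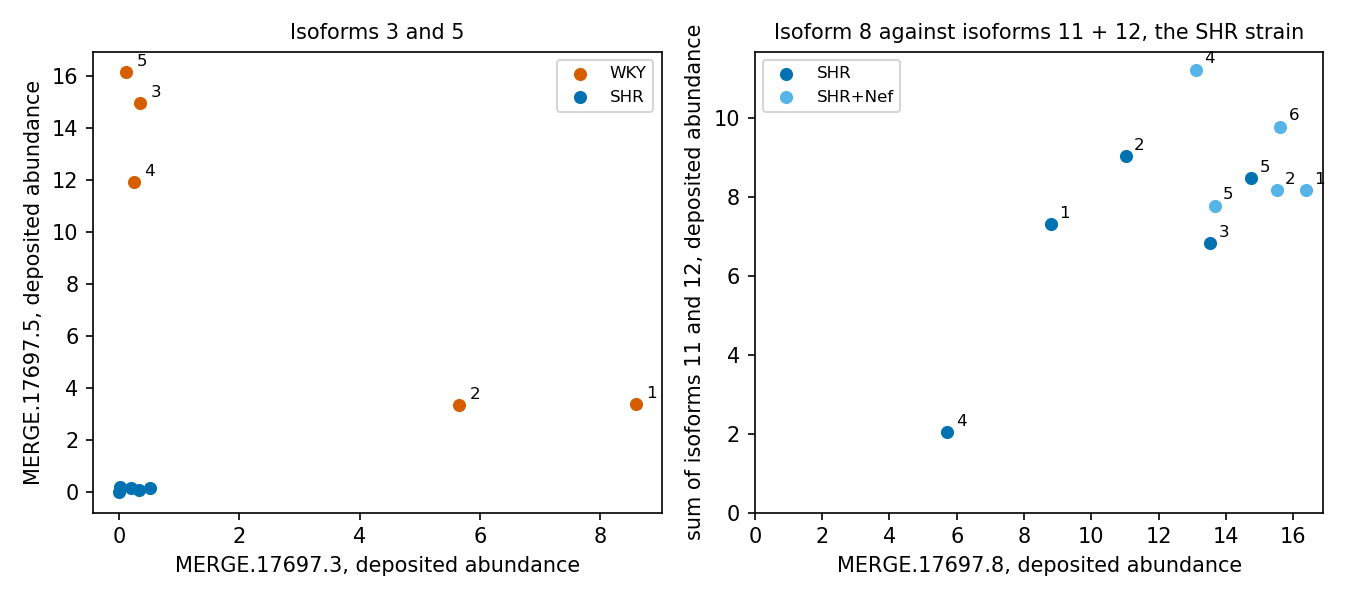
Left, isoform 5 (y axis) against isoform 3 (x axis) in WKY and SHR, in deposited abundance, with WKY replicate numbers. WKY replicates 1 and 2 lie at 5.66 and above on isoform 3, and replicates 3 to 5 at 11.9 and above on isoform 5. Right, the sum of isoforms 11 and 12 (y axis) against isoform 8 (x axis) in SHR and SHR+Nef, with SHR replicate 4 apart at the lower left.

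Other transcripts followed isoform 8 closely over the 15 libraries, and are named only for likeness of pattern. Among 29092 transcripts of other loci the highest Pearson correlation of log2(value + 1) with it was 0.99, that of MERGE.28577.1, at 0.796 ± 0.189 (WKY), 7.01 ± 1.76 (SHR) and 8.72 ± 0.459 (SHR+Nef), each with its SD over 5 libraries. Next was MERGE.23059.1 at 0.98, which was at 0 throughout WKY and averaged 17.6 ± 1.43 (SD) over the 5 SHR libraries and 17.3 ± 1.35 (SD) over the 5 SHR+Nef libraries. The mirror pattern was closest in ENSRNOT00000013571, with a correlation of -0.98. It stood at 22.5 ± 3.02 (WKY), 5.93 ± 1.59 (SHR) and 5.96 ± 0.772 (SHR+Nef), each with its SD over 5 libraries. ENSRNOT00000052292 came next at -0.97. The 2 other isoforms of the locus listed for all libraries were less alike, with correlations of 0.55 for isoform 11 and 0.40 for isoform 12. These coefficients over 15 libraries mostly restate the difference between the strains.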

How the data were processed

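RNA of the abdominal aorta was depleted of ribosomal RNA and sequenced, per the labels' protocols. For each library the authors deposited a table of signal values, 1 abundance a transcript and none below 0, whose scale no source used here names. A mouse build, mm10, and limma are named in the submitters' processing notes, although the Ensembl IDs have the rat prefix. Which aligner, assembler and abundance estimator made them is not stated in those sources. The tables hold a transcript only where 1 of the 2 groups compared has a mean of at least 0.5, as tested on the values. Depth is unknown, which limits low values most.

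Sample titles gave each library its group and replicate number. No label says outright that libraries are separate animals, so the p-values may measure technical spread. Transcripts listed in all 15 libraries, and at 1 or above in 5 or more of them, entered a two-sided limma test (version 3.58.1, R 4.3.3) of log2(value + 1), with all 3 groups in 1 model and eBayes set to trend and robust. Benjamini-Hochberg adjustment ran over every feature fitted, at 0.05. Locus sums had a fit of their own, and so had each isoform minus the average of its partners in the locus. Shares and the correlation were tested with Python 3.11.15 and scipy 1.17.1. The fits were also run on simulated data with known shifts larger than the differences seen between SHR+Nef and SHR. Those runs do not show how small a difference could be found. Transcripts of other loci were named by the 2 highest and 2 lowest correlations with MERGE.17697.8. The members and tests were chosen with earlier results of these data known. The alternatives were a pseudocount of 0.1, no filter, a minimum of 5 in 5 libraries, median scaling, quantile normalization, 2 groups only, no trend or robust option, a replicate block and each library left out. For shares and the correlation they were pooled sums, values centred on group means and log2 values.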

Additional observations from a re-analysis of the deposited data

Results flagged for a closer look

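Dixon's test at the 95% level was applied to 54 groups of 5 libraries, looking for a lowest or highest library set apart; by chance alone some 5% of such groups would pass. In WKY replicate 4, isoform 11 held 0.762% of the sum of isoforms 11 and 12, against 31.4% to 39.7% in the other 4 WKY libraries. Since isoform 8 is at 0 in WKY, the share of isoform 11 in the 3-isoform sum is the same 0.762%, and that of isoform 12 is its complement, 99.2% against 60.3% to 68.6%. SHR replicate 4 stood apart in the sum of all its values, 746274 against 504981 to 565896, and in its transcripts at 0, 8259 against 2560 to 3507.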

How the results depend on the processing

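The sums over all 5 isoforms and over isoforms 3 and 5 were added after the tables were seen. No test of SHR+Nef against SHR changed its call under any alternative that could have changed it. A minimum of 5 in 5 libraries left out isoform 11, isoform 12 and the balance, and the replicate block could not call the share of isoform 8. Adjusted p (limma) ran from 0.469 to 0.978 for isoform 8 and from 0.474 to 0.959 for the 3-isoform sum, both higher with neferine throughout. The balance of isoform 8 against isoforms 11 and 12 was -0.27 with a pseudocount of 0.1 (0.79 for isoform 11 and -0.52 for isoform 12, and 1.24 for the difference of isoform 11 itself, none called) and -0.0551 to 0.154 with 1 library left out, and that of isoform 11 was -0.0343 to 0.369. The difference of the share of isoform 8 was 0.714 points from summed values, and -2.38 to 2.38 with 1 library left out. The correlation was 0.548 centred on group means (permutation p = 0.102) and 0.157 to 0.767 with 1 library left out, losing its call without SHR replicate 4 (0.157) and, with r little moved, without SHR replicate 1 (0.718) or SHR+Nef replicate 6 (0.657). The cause was not tested.

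Between SHR and WKY, counting all 5 isoforms turned the 3-isoform sum from 12.1 to -0.498 and the members beside isoform 8 from 1.35 to -11.3, by construction. With 1 library left out, the 5-isoform sum differed by -1.95 to 2.02, isoforms 3 and 5 by -13.6 to -11.8, isoform 12 by -0.106 to 0.741, the 3-isoform sum by 10.7 to 14.5 and isoform 8 by 9.77 to 12.02.

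Same-numbered libraries did not deviate together (correlations of -0.067 to 0.091 over 13 pairs, 1 of them the best of its row), so the numbers are not taken as pairs. With the replicate block, isoform 8 differed by 0.52 and the 3-isoform sum by 0.56 (limma, adjusted p = 0.73 and 0.71). The share of isoform 8 then differed by 0.767 points over the 4 shared numbers (exact sign-flip test, p = 0.875). With so few pairs this test cannot reach 0.05, so nothing is read from its outcome. Over all features, the block left 0 transcripts called (1905 with an unadjusted p under 0.05, limma) in place of 2, and 1 locus sum in place of 3. Other alternatives gave 0 to 7 transcripts and 1 to 4 locus sums, the 0 with a pseudocount of 0.1 (1693 unadjusted, limma) or the stricter minimum (680 unadjusted, limma).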

Other observations

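Isoforms apart in both directions within 1 locus were found beyond MERGE.17697. Of 5495 assembled loci with 2 or more isoforms listed for WKY and SHR, 32 (0.582%) had at least 1 isoform that lay above and at least 1 that lay below in SHR without overlap. In 26 of the 32, MERGE.17697 among them, the sum over all isoforms overlapped between the strains. In 19 of the 32 a lower isoform was missing from the SHR+Nef tables. Over the isoforms listed for all 15 libraries the sum lay above WKY without overlap in 10 of the 32, and over all isoforms in 1. The 32 were picked for holding a lower isoform in SHR, and a low SHR mean favours absence from the SHR+Nef tables. The counts among the 32 thus partly follow from that choice, and nothing is read from them.

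Of the 41871 transcripts listed for WKY and SHR, 392 were at 0 in all 5 WKY libraries. Of these, 12 stood at 1 or more in all 5 SHR libraries, and 10 of the 12 did so in all 5 SHR+Nef libraries as well. MERGE.17697.8 was the 6th of the 12 by SHR mean. Of the 11 assembled isoforms among them, 2, MERGE.17697.8 included, belong to a locus that also held an isoform lower in SHR without overlap. By the listing rule, a transcript at 0 in WKY was listed only where its SHR mean was at least 0.5. The 392 thus follow in part from that rule, and MERGE.17697.8 was chosen for this pattern, so nothing is read from these counts.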
